A study of Rattus norvegicus with 7 samples.

Results

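The 10 genes described here, Vcl, Tln1, Pxn, Zyx, Ptk2, Ilk, Flna, Actn1, Actn4 and Bcar1, encode adaptor, kinase and linker proteins of the focal adhesion plaque. They were chosen by name from the 17147 gene symbols of the series, and all 10 were found. Levels were compared in rat mesenchymal stem cells (rMSCs) seeded for 4 h on films of ISB-P, a polyurethane copolymer of polycaprolactone and propoxylated isosorbide, on films of polycaprolactone (PCL) or on uncoated tissue culture plastic (TCP), to ask which transcripts accompany the attachment of cells to ISB-P. Values of 3 ISB-P, 3 PCL and 1 TCP library were available here. All cells were primary cells grown from bone marrow of a male Sprague-Dawley rat aged 6 weeks, in the same serum-containing medium, and neither the labels nor the methods say whether replicates were separate cultures, so that p-values measure only the spread between these libraries.

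Focal adhesions are the protein assemblies through which integrins, the transmembrane receptors for matrix, hold the actin cytoskeleton. Talin (Tln1) binds the integrin tail and actin, vinculin (Vcl) reinforces that bond under force, and filamin A (Flna) and the alpha-actinins (Actn1, Actn4) crosslink actin filaments. Paxillin (Pxn), p130Cas (Bcar1) and zyxin (Zyx) are adaptors. Focal adhesion kinase (Ptk2) signals through paxillin and p130Cas, and integrin-linked kinase (Ilk) acts mainly as a scaffold. These proteins are regulated largely by recruitment and phosphorylation, which RNA levels do not show.

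The deposited values carry no unit and were read as FPKM, fragment numbers divided by transcript length and library total, because the labels name Cuffdiff. Levels of different genes are compared below on that reading. They summed to between 539393 and 660124 per library, which is no read depth. The depth is unknown and no counting interval is given. Films were compared with limma's moderated test on log2(FPKM + 1), two-sided, over 9467 genes, each at 1 FPKM or more in 3 or more of the 6 libraries from films, with Benjamini-Hochberg adjustment over all of them. Ratios are therefore of FPKM + 1. All 10 genes passed this filter. The labelled cell type was checked against markers. Of 12 mesenchymal stem cell markers, 10 averaged at least 1 FPKM over the films, led by Col1a1 and Thy1, while Lepr stayed below that and Col1a2 was listed at 0 in every library, which can be a failed estimate. No endothelial marker of 6 reached a mean of 1 FPKM over the films. Of 6 erythroid markers only 3 had a row. Hba1 and Hbb were listed at 0, which can again be a failed estimate, and Alas2 reached at most 0.0426 FPKM, in ISB-P replicate 1. Of 8 leukocyte markers, 4 reached a mean of 1 FPKM over the films, led by Lyz2 and Cd14. Their sums were 40.1 to 47.5 FPKM on PCL and 40.3 to 46.7 on ISB-P. In bulk RNA, fewer cells of a type and less RNA per cell cannot be told apart.

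The plaque genes were among the more abundant transcripts of these cells. Flna was the highest, at 362 ± 28.9 FPKM (SD, n = 3) on PCL and 342 ± 30.2 (SD, n = 3) on ISB-P, above 97.2% of the tested genes. Actn4, Actn1, Ilk and Vcl followed in that order on both films, and each lay above at least 91.4% of tested genes. Zyx, Tln1 and Pxn came next, with means between 54.4 and 81.0 FPKM. Within each film the ranges of Zyx and Tln1, and of Tln1 and Pxn, overlapped, and Tln1 was above Pxn on PCL but below it on ISB-P. Ptk2 was the lowest, at 21.2 ± 2.01 FPKM on PCL and 22.4 ± 3.54 on ISB-P, above 58.2% of tested genes. Flna, Actn4 and Actn1 did not overlap each other within a film. Actn1 and Ilk, Vcl and Zyx, and Bcar1 and Ptk2 overlapped on ISB-P and not on PCL, and Pxn and Bcar1 on PCL and not on ISB-P. Vcl changed place on TCP, where it stood above Ilk.

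**Figure D1:**
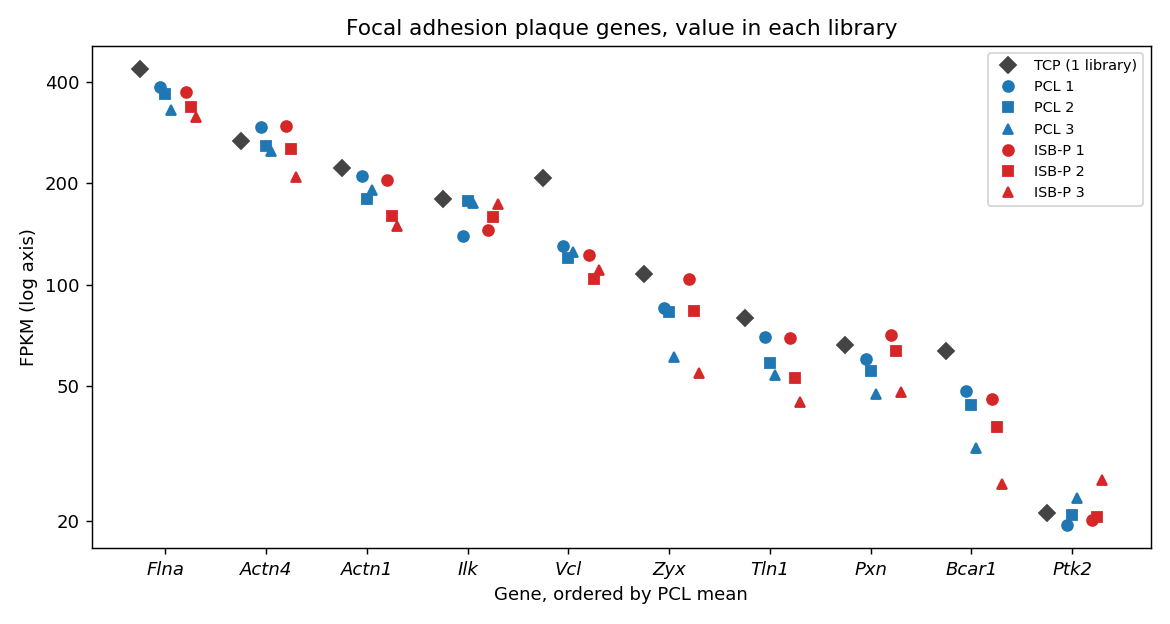
FPKM of the 10 focal adhesion plaque genes in each of the 7 libraries, on a log axis, with PCL in blue, ISB-P in red, TCP in grey and the symbol giving the replicate number. ISB-P and PCL points of each gene overlap, and the TCP point of Vcl, at 208 FPKM, stands above its 6 film points.

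The actin linkers did not separate the films. On PCL, Vcl stood at 131 FPKM in replicate 1, 120 in replicate 2 and 125 in replicate 3, and on ISB-P at 122, 104 and 111 in that order, which is kept for all values below. The ISB-P libraries were lower within each replicate number, but ISB-P replicate 1 lay above PCL replicate 2, so the films overlapped. The ratio of ISB-P to PCL was 0.896 (95% interval 0.733 to 1.09; log2 fold change -0.16, standard error 0.12, adjusted p = 0.776 in limma). Tln1 was 70.1, 58.5 and 54.0 FPKM on PCL and 69.8, 53.1 and 44.9 on ISB-P, a ratio of 0.911 (0.660 to 1.26, adjusted p = 0.915 in limma). Its replicate 1 libraries were nearly equal, and the films were furthest apart in replicate 3.

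Flna, the large crosslinker that also binds integrin tails, was 387, 369 and 331 FPKM on PCL and 374, 336 and 315 on ISB-P (ratio 0.943, 0.767 to 1.16, adjusted p = 0.915 in limma). Each ISB-P library was under its PCL partner by less than the range of either film. Actn1 was 210.2, 179.9 and 191 FPKM on PCL and 205, 160.2 and 149.9 on ISB-P, a ratio of 0.881 (0.682 to 1.14, adjusted p = 0.824 in limma), with the highest ISB-P library inside the PCL range. Its paralog Actn4 was 293, 257 and 249 FPKM on PCL and 296, 253 and 209 on ISB-P (ratio 0.942, 0.723 to 1.23, adjusted p = 0.934 in limma). Here the highest and the lowest film library were both ISB-P. Actn1 and Actn4 are alike in sequence, and the sources used here do not state how reads matching several genes were assigned.

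Of the adaptors, Pxn was higher on ISB-P in all 3 replicate pairs, as were 30.5% of tested genes, and no other member was. It was 60.3, 55.6 and 47.4 FPKM on PCL and 71.1, 63.5 and 48.2 on ISB-P, and its ratio of 1.11 (0.821 to 1.497) did not pass the test (log2 fold change 0.15, standard error 0.18, adjusted p = 0.8999 in limma). Bcar1, which Ptk2 and Src phosphorylate, was 48.3, 44.0 and 32.9 FPKM on PCL and 46.0, 37.9 and 25.7 on ISB-P. Its ratio of 0.866 was the lowest of the 10, with an interval of 0.576 to 1.30 (log2 fold change -0.21, standard error 0.25, adjusted p = 0.899 in limma). The range within each film was wider than the difference between film means for both adaptors. Zyx, a LIM protein of mature adhesions and stress fibres, was 85.5, 83.1 and 61.0 FPKM on PCL and 104, 83.9 and 54.7 on ISB-P. It was thus higher on ISB-P in replicates 1 and 2 and lower in replicate 3, with ratios of 1.22, 1.01 and 0.897 without a pseudocount. Its coefficient of variation was 17.7% on PCL, where only Bcar1 was wider at 19.1%, and 30.8% on ISB-P, the widest of the 10.

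Among the kinases, Ptk2 was 19.4, 20.8 and 23.3 FPKM on PCL and 20.2, 20.6 and 26.5 on ISB-P (ratio 1.05, 0.816 to 1.35, adjusted p = 0.939 in limma). The films lay within 1 FPKM of each other in replicates 1 and 2, and both were highest in replicate 3. Ilk was 139, 177 and 174.4 FPKM on PCL and 146, 158 and 174.3 on ISB-P (ratio 0.978, 0.769 to 1.24, adjusted p = 0.968 in limma). Its replicate 3 libraries differed by less than 1 FPKM.

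Of the 10 genes, none was called between ISB-P and PCL in limma at an adjusted p under 0.05, where 1.72% of all tested genes were. None had an unadjusted p under 0.05 either, as 12.1% of tested genes did. The limits of the study, a fold change over 2 and a p under 0.1, were applied here to unadjusted p-values of limma. None of the 10 passed, where 1.13% of tested genes did, or 0.687% with a mean of 16 FPKM on a film also asked for. The paper does not say whether its own p was adjusted, and it gives no unit for its normalized values over 16. The two-sided exact permutation test on 3 against 3 libraries gave p from 0.2 to 0.9, where 0.1 is the smallest it can give. In every one of the 10 genes the films overlapped, whereas 17.7% of tested genes did not overlap. All 10 intervals lay within 2-fold, from 0.576 for Bcar1 to 1.59 for Zyx, so that smaller differences were not resolved. Of the 10 log2 fold changes 7 were negative, where 4462 of 9467 tested genes were. The median of the 10 was -0.086, against 0.016 over all tested genes. That median moved with single libraries. Without ISB-P replicate 3 it was -0.0097, with 5 negative, against -0.031 over all tested genes, and without PCL replicate 1 it was -0.033. It was -0.18 without ISB-P replicate 1 and -0.14 without PCL replicate 3.

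Libraries of the films were paired by replicate number, and same-numbered deviations moved together across genes. The titles do not say what libraries of equal number share. Vcl, Tln1, Flna, Actn1 and Bcar1 were lower on ISB-P in all 3 pairs, 5 genes of 10, where 27.7% of tested genes were. With the replicate number as a block, Vcl, Actn1 and Bcar1 had an unadjusted p under 0.05, 3 genes of 10, where 38.3% of tested genes did. The lowest adjusted p was 0.0880, for Bcar1, so that none of the 10 was called, where 24.4% of tested genes were. The block narrowed the interval of the ratio to 0.808 to 0.994 for Vcl, 0.781 to 0.994 for Actn1 and 0.764 to 0.981 for Bcar1.

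**Figure D2:**
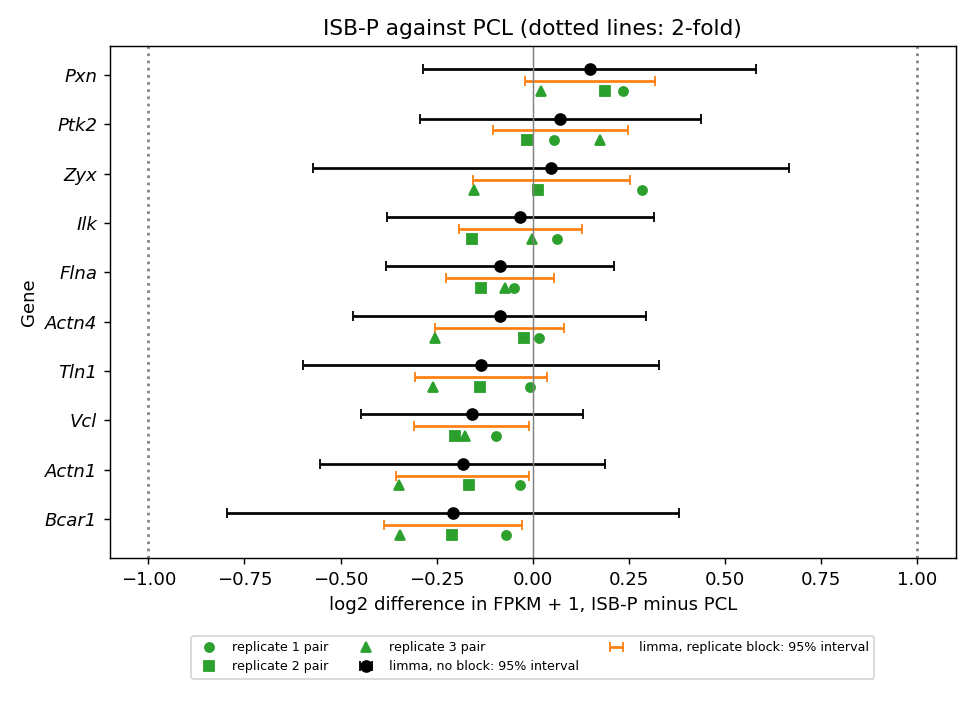
Difference between ISB-P and PCL of each gene on the log2(FPKM + 1) scale, with 95% intervals from limma without (black) and with (orange) the replicate block, and the difference within each replicate pair in green. All black intervals include 0 and lie inside the dotted lines at 2-fold, and the 3 pairs of Vcl, Tln1, Flna, Actn1 and Bcar1 all lie left of 0.

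Several members moved with the replicate number on both films. Tln1, Pxn, Zyx, Flna, Actn4 and Bcar1 had their lowest value in replicate 3 on PCL and again on ISB-P, 6 genes of 10, where 24.8% of tested genes did. Ptk2 had its highest value in replicate 3 on both, as 43.1% of tested genes did. The summed level of the 10 genes came to 1444, 1365 and 1289 FPKM on PCL and to 1455, 1270.4 and 1158 on ISB-P. Vcl was the steadiest member, with coefficients of variation of 4.37% on PCL and 8.29% on ISB-P.

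TCP was set against both films through its 1 library, so these values carry no replicate check, and both comparisons share that library. The TCP value was above all 6 film libraries for 7 of the 10 genes, Vcl, Tln1, Zyx, Ilk, Flna, Actn1 and Bcar1, where 25.4% of tested genes were, and below all 6 for none, where 29.7% were. Pxn, Ptk2 and Actn4 lay within the film range. The number above was 8 or 9 under the other scalings, where 30.1% to 33.7% of tested genes were. The TCP title gives no replicate number, and the highest film library of these 7 genes, except Ilk, was a replicate 1. Zyx was 107.9 FPKM on TCP against 104 in ISB-P replicate 1. Vcl was 208 against 131 in PCL replicate 1. The part of the replicate order in the TCP values was not tested.

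Vcl stood furthest from the films. It was 208 FPKM on TCP against 125 ± 5.47 (SD, n = 3) on PCL and 112 ± 9.31 (SD, n = 3) on ISB-P, ratios of TCP to film of 1.65 and 1.84. Bcar1 was 63.5 FPKM on TCP, with ratios of 1.51 to PCL and 1.72 to ISB-P. These were the only members past 1.5-fold, 2 of 10 on each film. TCP was more than 1.5-fold above PCL for 9.28% of tested genes and above ISB-P for 13.3%. No member was past 1.5-fold in the other direction, where 14.1% of tested genes were for PCL and 21% for ISB-P. Zyx (107.9 FPKM on TCP) and Tln1 (79.7) came next, with ratios of 1.40 and 1.30 to PCL and of 1.33 and 1.42 to ISB-P. Flna was 437 and Actn1 223 FPKM on TCP, with ratios of 1.21 and 1.15 to PCL and 1.28 and 1.29 to ISB-P. The kinases were close to the films: Ilk was 179.7 FPKM and Ptk2 21.1, with ratios to PCL of 1.098 and 0.999.

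Bcar1 rested near the limit. Without PCL replicate 3 it fell below 1.5-fold and 1 member, Vcl, remained past it, and without ISB-P replicate 1 Tln1 and Zyx joined, for 4 members. Over all tested genes the median ratio of TCP to film was 0.950 for PCL and 0.949 for ISB-P, against 1.21 and 1.29 over the 10 genes.

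Several marker sums were higher on TCP than in any film library. The 12 mesenchymal markers summed to 12769 FPKM on TCP against 7089 to 8017 on PCL and 6652 to 8015 on ISB-P, most of it Col1a1, with Col1a2 listed at 0. Col1a1 alone was 10406 FPKM on TCP and 3868 to 6058 on the films. Thy1, Eng, Vcam1 and Pdgfra were also above every film library on TCP. Nt5e, Cd44, Itgb1, Alcam, Pdgfrb and Lepr lay within the film range. The 8 leukocyte markers, 4 of them with a mean under 1 FPKM over the films, summed to 132 FPKM on TCP against 40.1 to 47.5 and 40.3 to 46.7. Ptprc, the pan-leukocyte antigen, was 1.48 FPKM on TCP and 0.433 to 1.23 on the films. The 4 adipocyte markers, led by Fabp4 on every surface, summed to 75.9 FPKM on TCP and to 19.99 to 41.1 on the films. The 4 osteoblast markers, led by Sp7, summed to 16.6 FPKM on TCP and to 4.61 to 9.39 on the films. The 6 endothelial markers summed to under 1 FPKM everywhere and Emcn was listed at 0. The part of these cells in the TCP values was not tested.

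**Figure D3:**
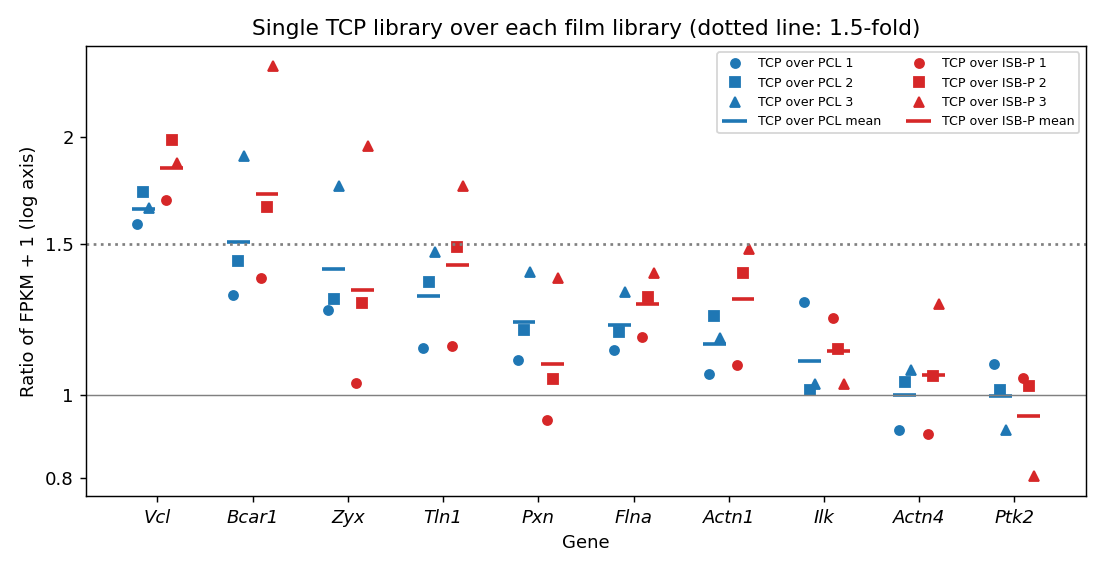
Ratio of the single TCP library to each film library (points) and to each film mean (bars) for the 10 genes, on a log axis, with PCL in blue and ISB-P in red. All 6 points of Vcl lie above the dotted line at 1.5-fold, and those of Actn4 and Ptk2 lie on both sides of 1.

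The promoters of Vcl and Bcar1, the pair past 1.5-fold on TCP, are shown next to the starts that RefSeq gives these genes. Whether these are the starts of the transcripts measured on the build rn5 is not known. RefSeq (GRCr8) gave 11 windows for 8 of the 10 genes, without Ptk2 and Actn4. The 250 bases before the start were searched on both strands for the CArG box of serum response factor, for CATTCC, the core of TEAD sites, for GAANNTTC and TTCNNGAA, the paired units of heat shock elements, and for GGGCGG, the GC box. No match overlapped one of another motif in the sequences printed. Capitals mark the matches counted, CATTCC and GGGCGG also as their reverse complements. A GGGCGG that overlaps a counted one was neither counted nor marked. This occurs in the Vcl window and in the second Bcar1 window.
Vcl, chr15:3404801-3405050, minus strand: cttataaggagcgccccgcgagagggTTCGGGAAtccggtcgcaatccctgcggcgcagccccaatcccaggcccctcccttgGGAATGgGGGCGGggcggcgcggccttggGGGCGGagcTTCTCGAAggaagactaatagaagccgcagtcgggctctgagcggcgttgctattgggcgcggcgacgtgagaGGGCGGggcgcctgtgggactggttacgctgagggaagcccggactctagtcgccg
Bcar1 first window, chr19:56623191-56623440, minus strand: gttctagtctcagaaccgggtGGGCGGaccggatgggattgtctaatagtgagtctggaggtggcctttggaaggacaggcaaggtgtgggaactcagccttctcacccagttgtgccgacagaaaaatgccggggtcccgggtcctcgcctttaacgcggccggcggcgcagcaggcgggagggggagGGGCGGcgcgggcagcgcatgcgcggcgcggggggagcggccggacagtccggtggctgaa
Bcar1 second window, chr19:56611629-56611878, minus strand: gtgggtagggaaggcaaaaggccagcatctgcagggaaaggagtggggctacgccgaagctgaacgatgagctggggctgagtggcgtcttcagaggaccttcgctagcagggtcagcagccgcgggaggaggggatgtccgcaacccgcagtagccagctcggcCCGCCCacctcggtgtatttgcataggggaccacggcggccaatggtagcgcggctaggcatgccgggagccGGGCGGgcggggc
The Vcl window held 1 match to the TEAD core, 3 to the GC box counted without overlap and 2 to the heat shock pattern. The latter lay at 224 to 217 and 129 to 122 bases before the start. Vcl was the only member with the heat shock pattern. That pattern was in 1 of the 11 windows and in 13.5% of all 33469 windows. The TEAD core was found in 3 of the 11 windows, from the members Vcl, Zyx and Flna, and in 12.1% of all windows. GC boxes were found in 8 of the 11 windows, from 6 of the 8 members, and in 30.5% of all windows. Each Bcar1 window held 2 counted without overlap. A CArG box was found in 0 of the 11 windows and in 1.5% of all. Such matches describe letters in these windows only.

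Other genes of focal adhesions were taken from a list of 75 sorted by role, of which 69 had a row and 58 were tested. In limma 1 was lower and 0 were higher on ISB-P at an adjusted p under 0.05, where 0.623% and 1.1% of tested genes were, and 9 had an unadjusted p under 0.05, where 12.1% of tested genes did. Their median log2 fold change was 0.0063, against 0.016 over all tested genes. With the replicate number as a block 10 were higher and 6 lower, where 13% and 11.4% of tested genes were. The films did not overlap for 7 higher and 6 lower genes of the 58, where 8.17% and 9.54% of tested genes were higher and lower without overlap.

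Ajuba, a LIM protein of the zyxin family, was the gene that fell. Its level was 13.7, 12.1 and 11.7 FPKM on PCL, 7.02, 5.66 and 4.09 on ISB-P and 19.9 on TCP. All 3 ISB-P libraries were below all 3 PCL libraries, at a ratio of 0.480 (0.354 to 0.652; log2 fold change -1.06, standard error 0.19, adjusted p = 0.0491 in limma). The call was at the edge of the threshold. It was lost in 12 of 14 alternatives, among them 5 of the 6 that leave out 1 library, and it held with the replicate block (adjusted p = 2.39e-04 in limma) and without ISB-P replicate 1 (0.0436). The adjusted p reached 0.240 without ISB-P replicate 2.

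Among list genes whose mean reached 16 FPKM on a film, Arhgef7 had the lowest log2 fold change. It encodes a guanine nucleotide exchange factor for Rac and Cdc42 that docks to the Git scaffolds. It was 25.4, 23.7 and 22.3 FPKM on PCL and 16.1, 13.8 and 12.3 on ISB-P, without overlap (log2 fold change -0.72, standard error 0.14, adjusted p = 0.0665 in limma, or 4.17e-04 with the replicate block). Kank2, Git1, Ptprf and Lasp1 followed, with log2 fold changes of -0.31, -0.25, -0.24 and -0.19 and overlapping films. None of these 4 was called in limma, and Kank2 (adjusted p = 0.0220) and Git1 (adjusted p = 0.0439) were with the replicate block.

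Fhl3, a LIM-only protein, had the highest log2 fold change of the list, 0.60 (adjusted p = 0.390 in limma, 8.28e-04 with the replicate block), with overlapping films at 56.1 ± 12.1 FPKM on PCL and 86.3 ± 22.2 on ISB-P. Tgfb1i1 encodes Hic-5, the close relative of paxillin. It was 160.5, 171 and 136 FPKM on PCL and 239, 241 and 179 on ISB-P, with every ISB-P library above every PCL library (log2 fold change 0.48, standard error 0.17, adjusted p = 0.292 in limma, 0.00165 with the replicate block), and 234 on TCP. Lims1 (PINCH, the partner of Ilk; 0.42) and Fhl1 (0.38) also separated the films, and Ptpn12, a phosphatase of Bcar1 (0.36), did not. None of these 3 was called in limma, and with the replicate block their adjusted p-values were 0.00599, 0.00851 and 0.0305. Ilk itself, the Lims1 partner, had a log2 fold change of -0.032.

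By role, the 13 tested zyxin-family and other LIM genes had 10 positive log2 fold changes, where 5005 of 9467 tested genes were positive. The median of the 13 was 0.064, and Ajuba was the exception in size. The 12 paxillin-family and docking genes had 8 negative ones, where 4462 of 9467 tested genes were negative. Of the 12, 2 were higher and 4 lower without overlap between films, where 8.17% and 9.54% of tested genes were. The 4 tested Ilk partners (median -0.013), 10 kinases and phosphatases (median 0.052) and 14 actin linkers (median -0.0017) held no gene called without the block. Neither did 5 genes of the kindlin, talin and Kank group (Fermt2, Fermt3, Kank1, Kank2 and the lipid kinase gene Pip5k1c, median -0.035). Over all tested genes 1.72% were called. With the block, 1 Ilk partner and 2 of the kinases and phosphatases were higher. Of the kindlin group 1 was lower, and of the actin linkers 2 were higher and 1 lower. Over all tested genes 13% were higher and 11.4% lower with the block. Cttn, cortactin, was listed at 0 in every library, which can be a failed estimate.

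**Figure D4:**
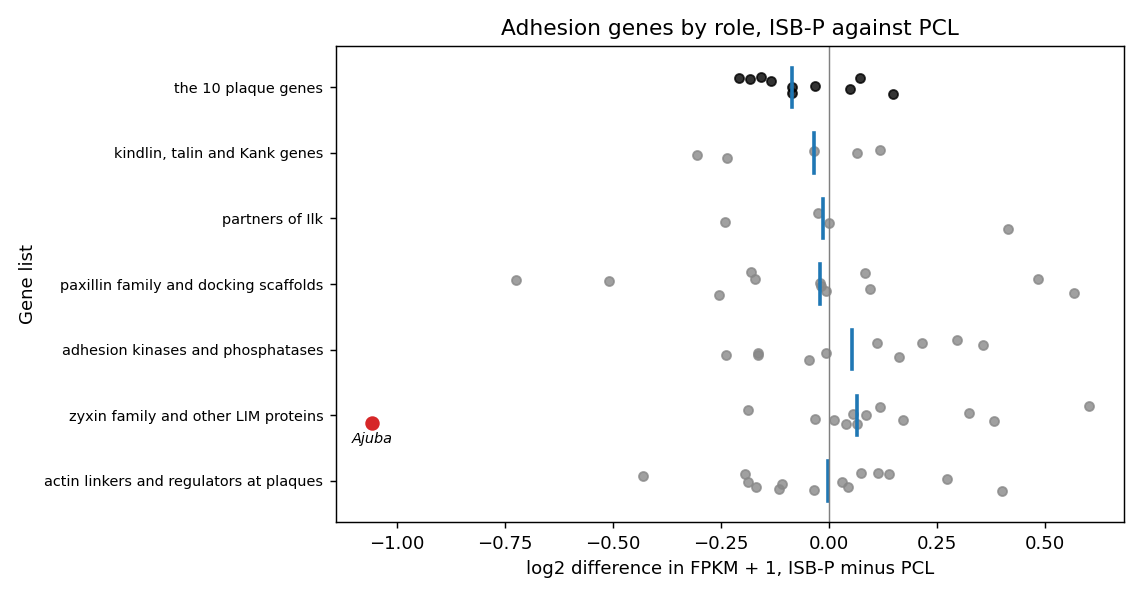
Log2 difference between ISB-P and PCL for the 10 plaque genes and for the 58 other tested adhesion genes by role, each point a gene, blue bars the medians and red the gene called in limma without the block. The 10 plaque genes lie between -0.21 and 0.15, and Ajuba stands apart at -1.06.

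On TCP, 17 of the 58 list genes were more than 1.5-fold above PCL, where 9.28% of tested genes were, and 18 above ISB-P, where 13.3% were. The 14 actin linkers held 8 of each, with a median ratio of TCP to film of 1.67 for PCL and 1.70 for ISB-P. Flnc, the muscle-enriched filamin, was 161 FPKM on TCP against 62.5 on PCL and 68.4 on ISB-P in the mean. Plec, the cytolinker plectin, was 184, 68.2 and 76.0 FPKM in that order. Its libraries spread widely, at 106, 50.7 and 47.9 on PCL and 129, 61.1 and 38.1 on ISB-P. Tns1, tensin 1, which binds integrin tails and actin, was 104 FPKM on TCP, with means of 45.6 on PCL and 44.7 on ISB-P. These 3 were chosen after their values were seen. Kank2, a talin-binding protein, was 65.8 FPKM on TCP and 32.2 and 26.1 on the films. The TCP value was above all 6 film libraries for 32 of the 58, where 25.4% of tested genes were, and below all 6 for 6, where 29.7% were. Lims1 and Ptpn12, both among these 6, were the only 2 of the 58 over 1.5-fold below the ISB-P mean, where 21% of tested genes were. Below the PCL mean by that much were 0 of the 58, where 14.1% of tested genes were. Several of the marker sums given above were also higher on TCP, and their part was not tested.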

How the data were processed

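RNA of rMSCs was measured at 4 h after seeding in 3 ISB-P, 3 PCL and 1 TCP library. The titles of the samples gave the groups and replicate numbers. The authors sequenced strand-specific mRNA libraries as paired ends. The labels' processing notes name bcl2fastq 2.20.0.422, cutadapt 1.18, TopHat2 2.0.13, Cuffdiff 2.2.1 and the genome build rn5, and the paper names ExDEGA. The annotation is not given in the sources used here. Each library has its own deposited table of gene symbols and values, without replicates pooled. The files name no unit, and the values the authors deposited were read as FPKM, which Cuffdiff gives. Read depth is unknown.

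Values were used as deposited, in limma 3.58.1 (R 4.3.3; lmFit and eBayes, trend on) after log2(FPKM + 1), over genes at 1 FPKM or more in 3 or more film libraries, called at an adjusted p under 0.05. The paper states no such test, only a fold change over 2 and a p under 0.1. The legends of its heat maps of changed genes add normalized values over 16. The fit was also run on simulated data with the same independent noise for every gene and no shared replicate effect. That setting is simpler than these libraries and cannot show how the block performs on them. TCP entered as ratios with no test, and a limma fit that assumes it to vary like the films was an alternative. Libraries were paired by replicate number. Deviations of same-numbered libraries from the film means correlated across genes at 0.887, 0.431 and 0.867. Other numbers gave -0.356 on average. That value is largely set by taking deviations from each film's own mean, so it is no separate evidence of pairing. Genes are not independent replicates. The pairing comes from the titles, which do not say what libraries of equal number share.

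The 10 genes and all lists were chosen with earlier results of these data known. Named list genes were those called, up to 10, and the 5 highest and 5 lowest log2 fold changes among list genes whose mean reached 16 FPKM on a film, and most other list genes were counted without being named. Alternatives were other scalings, filters, pseudocount, block, TCP in the fit, no trend, the paper's thresholds, and libraries left out. Promoters came from RefSeq GRCr8. Figures were drawn with matplotlib 3.10.9.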

Additional observations from a re-analysis of the deposited data

How the results depend on the processing

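No plaque gene was called between the films under any of the 18 alternatives in limma, nor by the paper's thresholds. Several alternatives called few genes at all. Of 9467 tested genes, 0 were called without replicate 2, 20 without PCL replicate 2 and 27 without ISB-P replicate 2, against 2307 with the replicate block. Where so few genes were called, the absence of a plaque gene says little. The replicate block changed no call among the 10 genes and raised that of the other adhesion genes from 1 to 16. Of 180 values of single plaque genes, 163 kept their direction. Zyx turned to -0.030 (upper quartile scaling), -0.047 (quantile normalization) and -0.066 (common total) on the log2 scale, and Ptk2 to -0.0046 and -0.040 under the first and last of these. With libraries left out, log2 fold changes ranged from -0.16 to 0.30 for Zyx, -0.14 to 0.031 for Ilk, -0.30 to 0.0087 for Tln1, -0.049 to 0.14 for Ptk2, -0.21 to 0.044 for Actn4 and -0.39 to 0.019 for Bcar1. These include leaving out both libraries of a number, an alternative chosen after seeing the data. The common total moved the median of all tested genes from 0.016 to -0.089. The median of the 10 genes, -0.086 as deposited, was -0.17 with upper quartile scaling, -0.24 with quantile normalization and -0.20 with a common total, where 8 or 9 genes were negative. Relative to all tested genes it was -0.10 as deposited, -0.11 with the first and last of these and -0.23 with quantile normalization, and it ranged from -0.22 to 0.021 with libraries left out, the latter without ISB-P replicate 3.

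The count of other adhesion genes, 1 as reported, was 0 with upper quartile scaling, quantile normalization, a common total, no filter, at least 16 FPKM, a pseudocount of 0.1, TCP in the fit, no trend or the paper's thresholds, and 0 to 1 with libraries left out. Ajuba, the gene called, averaged 12.5 and 5.59 FPKM on PCL and ISB-P, so any floor of 16 FPKM leaves it out before a test. Without that floor it passed the paper's fold and p (unadjusted p = 7.87e-04 in limma), an alternative chosen after seeing the data. Members past 1.5-fold from TCP, 2 on each film, numbered 0 on each at 2-fold, 5 for ISB-P after quantile normalization, 1 to 2 for PCL and 2 to 4 for ISB-P with libraries left out, and 0 for PCL and 1 for ISB-P in a limma fit that takes the spread of the 1 TCP library from the films, where 3.78% and 6.11% of tested genes were higher on TCP. Those values rest on 1 library and carry no call. The cause was not tested. With 3 libraries per film and 1 on TCP, differences inside the intervals given cannot be resolved.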
